A study of Mus musculus with 31 samples.

Results

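The genes of squamous keratins and cornification were followed over 31 arrays of mouse distal colon. They were the 10 genes *Krt5*, *Krt14*, *Krt13*, *Krt6a*, *Krt6b*, *Krt15*, *Sprr1a*, *Lor*, *Trp63* and *Krtdap*, out of 24812 genes that the probes of the array could be matched to. Their 16 probes, of 56605 on the array, were taken by the gene name in the array files. The genes were chosen from signals of these same arrays, in which they were high on a few arrays only, so that their levels array by array are a description. The tests given further on are of treatment, day and sex, in a fit over all genes, and of single genes on a day.

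BALB/c mice, 4 to 6 weeks of age, were all given azoxymethane (AOM), a carcinogen of the colon, by injection a week before the experiment, and then 2% dextran sodium sulphate (DSS), which injures the colonic lining, in their water up to day 5. This chemical model of colorectal cancer (CRC) was used with water as the vehicle (CRC) or with 5 mg/kg bw/day of E171, food-grade titanium dioxide, by gavage (CRC + E171). Distal colons were taken after 2, 7, 14 and 21 days, and RNA of each mouse was hybridised to 1 array. The mice of 2 days were thus taken while DSS was still given, and the others after it had ended. Between these days, time and DSS cannot be told apart. Each of the 8 groups holds males 1 and 2 and females 1 and 2, apart from CRC at 21 days, which has no male 2. Both treatments carry AOM and DSS, so that no array shows the colon without them.

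The colon is lined by a simple epithelium, a single sheet of cells whose keratins are Krt8, Krt18, Krt19 and Krt20. A stratified squamous epithelium, such as that of the skin, the oesophagus and the anal canal, is built differently. Its basal cells make Krt5 and Krt14 under the transcription factor p63, encoded by *Trp63*, and its upper cells change their keratins and seal their envelopes with proteins such as loricrin and the small proline-rich proteins, a process called cornification. The squamous lining of the anal canal meets the columnar lining of the colon at the anorectal junction.

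The probes are 60-base DNA oligonucleotides, and the bases nearest to the end of the message show what is read. The 30 bases below, from base 31 to base 60 of each probe, are printed for the keratins and cornification genes on which the results turn. The capitals mark AATAAA, the polyadenylation signal that lies shortly before the end of a message.
Krt5 probe 1: tgacttcctccagagtctgtccAATAAAat
Krt14 probe 1: ccttgtccttcctggcaagcAATAAAgctt
Krt6a probe 1: gtaatttctaAATAAAgcaggtttatacat
Krt6b probe 1: tcacatgatgccatctctgctctttgtttc
Lor probe 1: attctagtgtctcctcagtcAATAAAtttg
Krtdap probe 3: agttcccccAATAAAgtgttttccactcaa
By the array annotation, on mm9, these probes lie at chr15:101537514-101537573, chr11:100064495-100064554, chr15:101520361-101520420, chr15:101506492-101506551, chr3:91884206-91884265 and chr7:31576045-31576102, the last on the plus strand and the others on the minus strand. *Krt6a* and *Krt6b* encode near-identical keratins, and their 2 probes share no run longer than 7 bases. Among pairs of probes of different members the longest shared run was 8 bases. The exon or untranslated region that a probe falls in was not determined here. Krt13 probe 1 and Krtdap probes 1 and 2 span 239, 229 and 671 bases of the genome with their 60 bases, so that each of them joins sequence from both sides of at least 1 intron.

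*Trp63* has 4 probes at different positions of its locus, and 2 of them are printed for their contrast. The capitals mark a run of CAG repeats, and the bases are those from 31 to 60 of probe 1 and from 15 to 44 of probe 4.
Trp63 probe 1: tttttacagcttcagttgcttgtcttctgg
Trp63 probe 4: tacaggCAGCAGCAGCAGCAGCAGcaccag
Trp63 probe 1 lies at chr16:25892012-25892071 and Trp63 probe 4 at chr16:25871159-25871218, on the plus strand of mm9. Probe 4 shares a run of at least 20 bases with 1 probe of another gene, and none of the other 15 probes does so.

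All levels below are log2 signals relative to the 75th percentile of the same array, so that 0 is the 75th percentile itself and a difference of 1 is a factor of 2. A gene level is the mean over its probes that passed the filter on dim probes. Of the 16 probes 14 passed it, and Trp63 probes 1 and 2 did not, so that the level of *Trp63* is the mean of probes 3 and 4. All 10 genes were among the 19796 genes tested. Values of a group are given in the order male 1, male 2, female 1, female 2, and for CRC at 21 days in the order male 1, female 1, female 2. Levels of different probes are not comparable with each other.

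The 75th percentile was 1717 to 6536 intensity units on the 31 arrays, and the share of spots well above background was 67.4% to 78.9%. A list of 11 keratins and other genes of simple epithelium was detected on all 31 arrays, at levels that differed between arrays. On the array of CRC 14 days male 2 the genes of the sex chromosomes went against the labelled sex. The arrays lay on 8 slides scanned on 3 days. The treatments were in different columns of each slide, so that treatment and column cannot be told apart. No slide held both treatments of the same day, so that E171 and its control of a day were always on different slides. In bulk samples fewer cells of a type and less RNA per cell cannot be told apart.

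A few of the arrays stood apart from the others in these genes, and they were of different groups. On CRC 7 days male 1, CRC 21 days female 1 and CRC + E171 14 days male 2 all 16 probes were well above background. On the other 28 arrays this held for 10 to 15 probes. As an array score, the level of each gene minus its mean over the 31 arrays was averaged over the 10 genes. The score was 7.26 on CRC 7 days male 1, 6.12 on CRC 21 days female 1, 5.03 on CRC + E171 14 days male 2, 3.82 on CRC + E171 21 days female 1, 2.20 on CRC + E171 2 days male 2 and 1.04 on CRC 7 days female 2. On the other 25 arrays it lay between -1.77 and 0.02. These 6 arrays came first in the same order after quantile normalization, with normexp background correction, in the authors' matrix and with the highest probe of each gene.

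**Figure D1:**
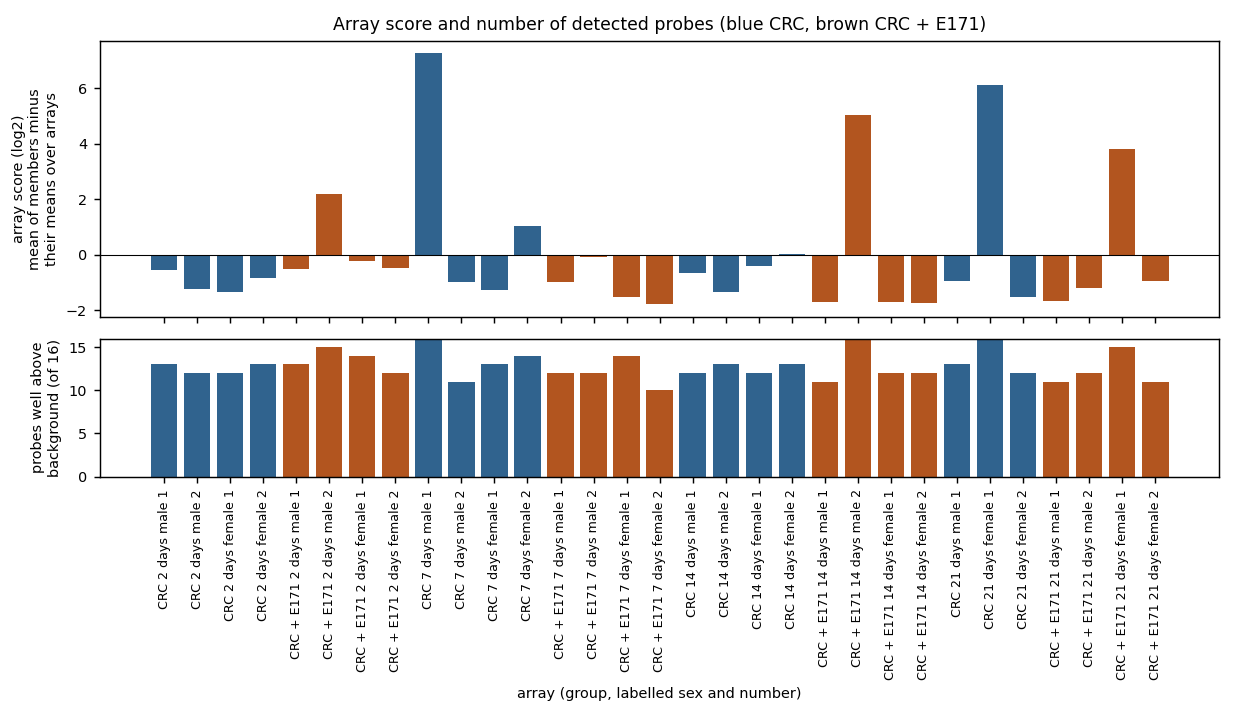
The upper bars give the array score, the mean over the 10 genes of the log2 level minus the gene's mean over the 31 arrays, and the lower bars the number of the 16 probes that were well above background, for each array (blue CRC, brown CRC + E171). The score is 7.26 on CRC 7 days male 1 and above 2 on 5 arrays of 5 different groups, while 25 arrays lie between -1.77 and 0.02.

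**Figure D2:**
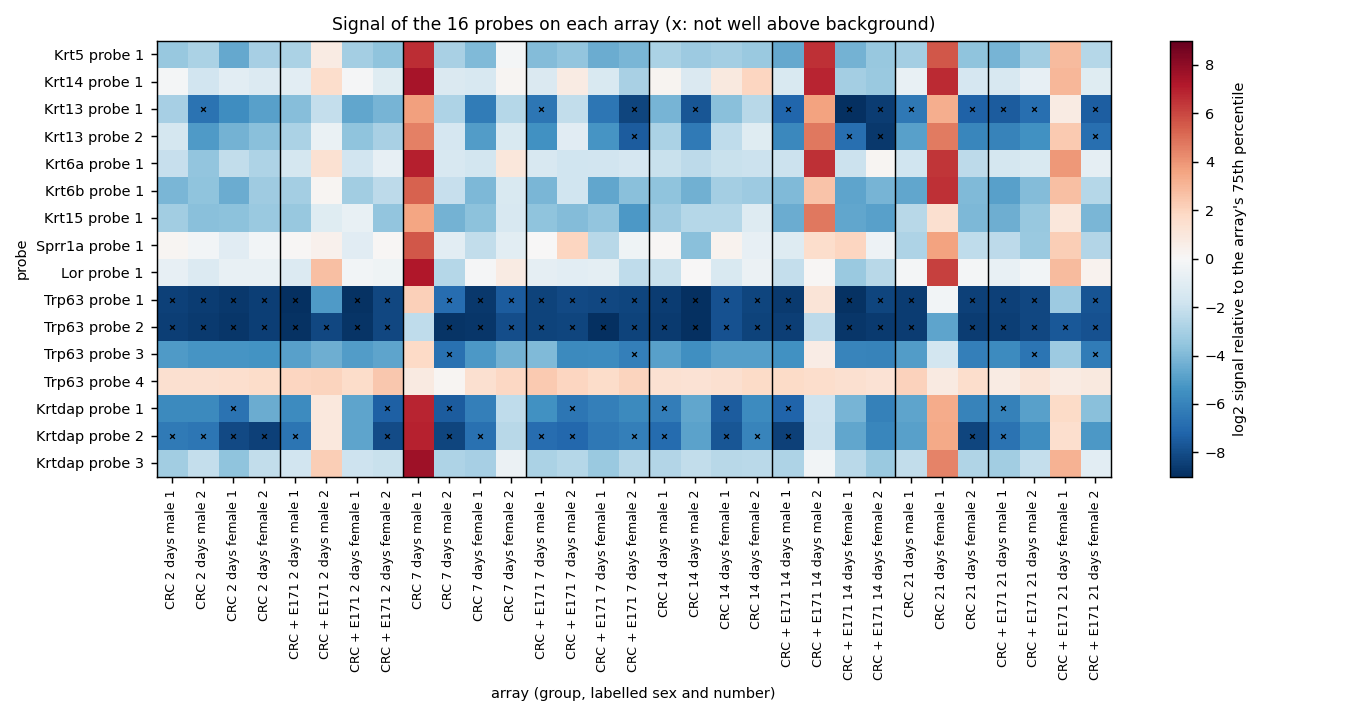
Each column is an array and each row a probe, coloured by the log2 signal relative to the 75th percentile of the array, with a cross where the spot was not well above background. The columns of CRC 7 days male 1, CRC 21 days female 1 and CRC + E171 14 days male 2 have no cross, and Trp63 probe 4 keeps nearly the same colour in all columns.

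The basal keratins were high on these arrays and low on most others. *Krt5*, the type II keratin of basal cells, was among the 37 genes with the highest standard deviation over the arrays. In CRC, *Krt5* had log2 levels of -3.44, -2.82, -4.59 and -2.99 at 2 days, 6.65, -2.93, -3.96 and -0.20 at 7 days, -2.87, -3.30, -3.03 and -3.35 at 14 days, and -3.05, 5.60 and -3.60 at 21 days. In CRC + E171 its log2 levels were -2.82, 0.71, -3.09 and -3.60 at 2 days, -3.91, -3.52, -4.45 and -4.13 at 7 days, -4.63, 6.58, -4.28 and -3.39 at 14 days, and -4.18, -3.16, 2.88 and -2.59 at 21 days. *Krt5* was thus at 5.60 or more on the 3 arrays, at 2.88 on CRC + E171 21 days female 1 and at 0.71 on CRC + E171 2 days male 2, and below 0 on the other 26. Its highest array exceeded its lowest by 11.28 on the log2 scale, or 2484-fold, and its probe was well above background on all 31 arrays.

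*Krt14*, the type I partner of Krt5 in the same filaments, had the highest level of its own on CRC 7 days male 1 as well. The log2 levels of *Krt14* in CRC were -0.20, -1.75, -0.96 and -1.26 at 2 days, 7.44, -1.30, -1.47 and 0.18 at 7 days, 0.26, -1.29, 0.85 and 1.95 at 14 days, and -0.67, 6.71 and -1.49 at 21 days. Those in CRC + E171 were -0.93, 1.59, -0.12 and -1.10 at 2 days, -1.31, 0.77, -1.34 and -2.94 at 7 days, -1.37, 6.83, -3.05 and -3.36 at 14 days, and -1.46, -0.75, 2.95 and -1.09 at 21 days. *Krt14* was above 6 on the same 3 arrays, and its next levels were 2.95 on CRC + E171 21 days female 1, 1.95 on CRC 14 days female 2 and 1.59 on CRC + E171 2 days male 2. On CRC 14 days female 2 *Krt5* was at -3.35, so that this array was the fifth highest in *Krt14* and not among the highest in its partner. Over the 31 arrays the levels of *Krt5* and *Krt14* had a Pearson correlation of 0.92 (Spearman 0.67), and 0.83 without the 2 arrays farthest from the median of *Krt5*.

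*Krt15* is a type I keratin of basal cells and of hair follicle stem cells. In CRC, *Krt15* had log2 levels of -3.13, -3.73, -3.72 and -3.32 at 2 days, 3.56, -4.26, -3.70 and -1.43 at 7 days, -3.23, -2.56, -2.54 and -1.18 at 14 days, and -2.53, 1.47 and -4.06 at 21 days. In CRC + E171 its log2 levels were -3.42, -1.09, -0.67 and -3.56 at 2 days, -3.63, -3.90, -3.57 and -5.19 at 7 days, -4.43, 4.74, -4.71 and -4.92 at 14 days, and -4.40, -3.41, 1.02 and -4.09 at 21 days. It was highest on CRC + E171 14 days male 2, and it was above 0 on 3 others, CRC 7 days male 1, CRC 21 days female 1 and CRC + E171 21 days female 1. On the other 27 arrays *Krt15* lay below 0.

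*Krt13* is the type I keratin of moist, non-cornified squamous linings. The log2 levels of *Krt13* in CRC were -2.28, -5.88, -4.91 and -4.30 at 2 days, 4.13, -2.13, -5.66 and -1.97 at 7 days, -3.51, -7.00, -3.00 and -1.79 at 14 days, and -5.68, 3.95 and -6.57 at 21 days. Those in CRC + E171 were -3.34, -1.37, -4.13 and -3.53 at 2 days, -5.99, -1.63, -5.89 and -7.88 at 7 days, -6.47, 4.19, -7.95 and -8.60 at 14 days, and -6.76, -6.11, 1.57 and -7.13 at 21 days. The order of the 3 arrays was the same as in *Krt15*, with 4.19 on CRC + E171 14 days male 2, 4.13 on CRC 7 days male 1 and 3.95 on CRC 21 days female 1. The 2 probes of *Krt13* followed each other closely (Pearson 0.99 over the 31 arrays), and probe 1 was well above background on 19 arrays and probe 2 on 27. On CRC + E171 14 days female 2, with a level of -8.60, both were not well above background. Its range of 12.78 therefore has no measured lower end.

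*Trp63* encodes p63, the transcription factor that basal cells of stratified epithelia depend on. Trp63 probe 1 had log2 levels of 2.16 on CRC 7 days male 1, 1.13 on CRC + E171 14 days male 2, -0.22 on CRC 21 days female 1, -3.30 on CRC + E171 21 days female 1 and -5.07 on CRC + E171 2 days male 2. On the other 26 arrays it was not well above background. These are the 5 arrays with the highest array score, on which *Trp63* was chosen together with the other genes. Trp63 probe 2 was well above background on 3 arrays and Trp63 probe 3 on 27. Trp63 probe 2 measured -2.29 on CRC 7 days male 1, -2.38 on CRC + E171 14 days male 2 and -4.77 on CRC 21 days female 1. Trp63 probe 3 measured 1.79, 0.70 and -1.68 on the same arrays.

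Trp63 probe 4, which holds the CAG repeat, did not follow the others. Its correlation with the mean of the other 9 genes was -0.28 (Spearman 0.00), against 0.96, 0.88 and 0.90 for Trp63 probes 1, 2 and 3. It was well above background on all 31 arrays, and on CRC 7 days male 1, where the other 3 were highest, it measured 0.82. The log2 levels of *Trp63* in CRC were -1.81, -1.95, -1.91 and -1.83 at 2 days, 1.31, -3.25, -1.86 and -1.18 at 7 days, -1.78, -2.11, -1.76 and -1.61 at 14 days, and -1.45, -0.43 and -2.29 at 21 days. Those in CRC + E171 were -1.48, -1.20, -1.69 and -1.15 at 2 days, -0.80, -1.91, -2.01 and -2.10 at 7 days, -1.87, 1.13, -2.26 and -2.32 at 14 days, and -2.47, -2.71, -1.27 and -2.72 at 21 days. This gene level averages probes 3 and 4, and its standard deviation of 0.95 over the arrays was the smallest of the 10 genes. The other 9 lay between 2.04 (*Sprr1a*) and 3.51 (*Krt13*), against a median of 0.46 over all genes tested.

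*Krt6a* and *Krt6b* encode the keratins that squamous cells make after injury and in fast turnover. In CRC, *Krt6a* had log2 levels of -2.09, -3.52, -2.20 and -2.81 at 2 days, 7.01, -1.42, -1.64 and 1.01 at 7 days, -2.03, -2.37, -1.99 and -1.91 at 14 days, and -1.80, 6.45 and -2.32 at 21 days. In CRC + E171 its log2 levels were -1.55, 1.38, -1.74 and -0.76 at 2 days, -1.44, -1.82, -1.71 and -1.55 at 7 days, -1.90, 6.61, -1.91 and 0.18 at 14 days, and -1.58, -1.39, 3.90 and -0.82 at 21 days. *Krt6a* was above 6 on the 3 arrays and at 3.90 on CRC + E171 21 days female 1, 1.38 on CRC + E171 2 days male 2 and 1.01 on CRC 7 days female 2. On CRC + E171 14 days female 2, at 0.18, it was the seventh highest, while *Krt13* and *Krt14* were at their lowest there.

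The log2 levels of *Krt6b* in CRC were -4.11, -3.63, -4.46 and -3.18 at 2 days, 5.31, -2.04, -4.08 and -1.34 at 7 days, -3.59, -4.33, -3.02 and -3.27 at 14 days, and -4.66, 6.56 and -4.00 at 21 days. Those in CRC + E171 were -3.08, 0.16, -3.10 and -2.37 at 2 days, -4.12, -1.77, -4.68 and -3.79 at 7 days, -4.01, 2.53, -4.76 and -4.17 at 14 days, and -4.86, -3.91, 2.70 and -2.59 at 21 days. *Krt6b* was highest on CRC 21 days female 1, at 6.56, followed by CRC 7 days male 1 at 5.31, CRC + E171 21 days female 1 at 2.70 and CRC + E171 14 days male 2 at 2.53. *Krt6a* and *Krt6b* had a Pearson correlation of 0.93 over the arrays, with a Spearman correlation of 0.55. The order of the other arrays was thus less alike between both genes than the height of the first ones.

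On CRC + E171 14 days male 2 the keratins *Krt5* and *Krt14* ranked 2, while *Sprr1a* ranked 6, *Lor* 7 and *Krtdap* 5 among the 31 arrays. *Lor* encodes loricrin, the main protein of the cornified envelope of the epidermis. In CRC, *Lor* had log2 levels of -0.72, -1.25, -0.64 and -0.64 at 2 days, 7.20, -2.59, -0.11 and 0.75 at 7 days, -2.04, 0.05, -1.36 and -0.52 at 14 days, and -0.19, 6.15 and -0.19 at 21 days. In CRC + E171 its log2 levels were -1.21, 2.68, -0.27 and -0.40 at 2 days, -0.78, -0.93, -0.85 and -2.28 at 7 days, -2.16, 0.10, -3.36 and -2.52 at 14 days, and -0.66, -0.22, 2.83 and 0.32 at 21 days. *Lor* was above 6 on CRC 7 days male 1 and CRC 21 days female 1, and at 0.10 on CRC + E171 14 days male 2.

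*Krtdap*, or keratinocyte differentiation-associated protein, is made by the layers above the basal cells. The log2 levels of *Krtdap* in CRC were -5.08, -4.80, -6.12 and -5.02 at 2 days, 7.15, -6.18, -5.31 and -1.78 at 7 days, -5.25, -3.90, -5.89 and -4.68 at 14 days, and -3.96, 3.73 and -5.64 at 21 days. Those in CRC + E171 were -4.65, 1.38, -3.79 and -5.79 at 2 days, -5.07, -5.37, -5.32 and -4.78 at 7 days, -6.14, -1.35, -3.77 and -5.10 at 14 days, and -5.25, -4.21, 2.13 and -3.30 at 21 days. On CRC + E171 14 days male 2 it was at -1.35, below CRC + E171 21 days female 1 at 2.13 and CRC + E171 2 days male 2 at 1.38. Probe 2 of *Krtdap* was well above background on 14 of the 31 arrays, probe 1 on 23 and probe 3 on all. *Lor* and *Krtdap* correlated with each other at 0.91 (Spearman 0.63) and at 0.76 without the 2 arrays farthest from the median of *Lor*.

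*Sprr1a* encodes a small proline-rich protein that is cross-linked into the envelope. By Pearson's correlation it followed the other genes least of the 10, with 0.72 against their mean, and 0.46 without the 2 arrays farthest from the median of that mean. Its Spearman correlation of 0.50 was above those of *Krt6a* (0.39) and *Krtdap* (0.43). In CRC, *Sprr1a* had log2 levels of 0.14, -0.22, -1.05 and -0.27 at 2 days, 5.60, -0.97, -2.18 and -0.97 at 7 days, 0.12, -3.79, 0.33 and -0.73 at 14 days, and -2.75, 3.65 and -2.30 at 21 days. In CRC + E171 its log2 levels were 0.09, 0.42, -1.05 and 0.11 at 2 days, 0.01, 1.91, -2.49 and -0.42 at 7 days, -1.18, 1.60, 1.94 and -0.49 at 14 days, and -2.38, -3.35, 2.20 and -2.61 at 21 days. After 5.60, 3.65 and 2.20 its next levels were 1.94 on CRC + E171 14 days female 1 and 1.91 on CRC + E171 7 days male 2. On CRC + E171 7 days male 2 *Krt13* ranked 6 and *Krt5* ranked 21 among the 31 arrays. *Sprr1a* and *Lor* had a Pearson correlation of 0.52 and a Spearman correlation of 0.02.

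**Figure D3:**
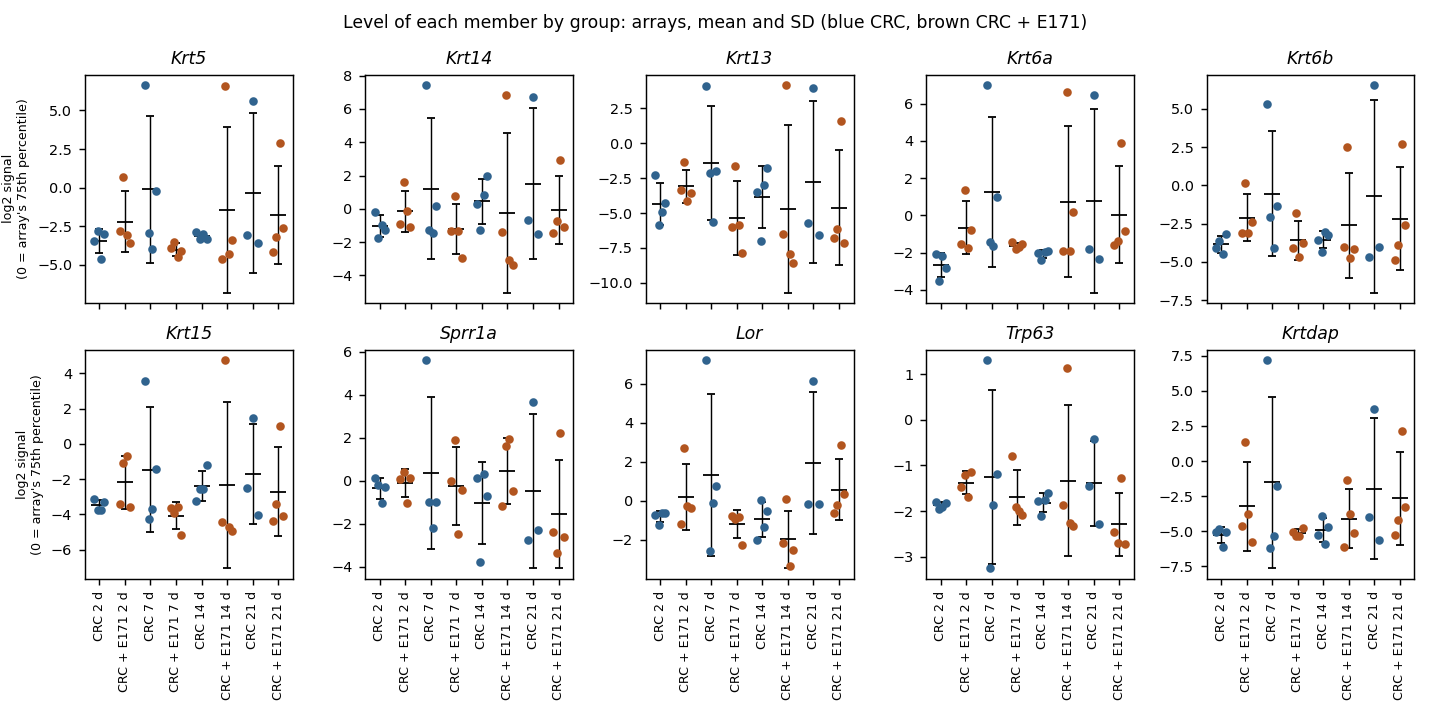
Each panel shows a gene, with the log2 level relative to the array's 75th percentile of each array (points, blue CRC, brown CRC + E171) and the mean ± SD of each group of 3 or 4 arrays. In CRC at 7 and 21 days and in CRC + E171 at 14 and 21 days 1 array lies far above the others of its group in most panels, and the SD is widest there.

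Over the 31 arrays the 10 genes followed one another, as far as a few high arrays allow it to be said. Each gene was set against the mean of the other 9. Pearson's correlation was 0.97 for *Krt5*, 0.96 for *Krt6b*, 0.94 for *Krt14*, 0.93 for *Krt6a*, 0.91 for *Krt15*, 0.89 for *Krt13*, 0.88 for *Krtdap*, 0.83 for *Lor*, 0.82 for *Trp63* and 0.72 for *Sprr1a*. Spearman's correlation ranged from 0.39 (*Krt6a*) to 0.89 (*Krt14*), so that the ranks of the arrays with low levels were less alike. The arrays share their scaling and slides, and the genes were chosen for this pattern, so that these values are descriptions.

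The genes outside the members whose levels were most like the array score were taken from the 19730 other genes measured on all arrays, and named where they have a gene name rather than a clone name. Outside the lists described below, *Cysrt1* had a Pearson correlation of 0.964 with it, *Clic3* 0.959, *Lgals7* 0.944, *Teddm3* 0.933 and *Fam25c* 0.923. *Lgals7* encodes galectin-7, which is made by stratified epithelia. The next ones were *Duox1* (0.919), *Trex2* (0.917), *Aqp3* (0.910), *Tfap2a* (0.905) and *Adgrf4* (0.901). In all, 122 genes were above 0.8, of which 16 were above 0.9, and 22 were below -0.8. The lowest were *Foxd2os* (-0.874), *Foxd2* (-0.866) and *Mia* (-0.863).

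Other genes of stratified epithelium were taken as lists of their own. Of 43 other cornification genes 43 were detected on CRC 7 days male 1, 42 on CRC 21 days female 1, 41 on CRC + E171 2 days male 2, 38 on CRC + E171 21 days female 1, 34 on CRC + E171 14 days male 2 and 31 on CRC 7 days female 2. On the other 25 arrays 22 to 29 were detected. The median over the list of the level minus the gene's mean was 7.48, 4.44, 1.75, 1.93, 0.86 and 0.21 on the 6 arrays in that order, and -1.33 to -0.27 on the other 25. Of the 43 genes 41 were highest on one of the 6 arrays. *Lypd3* had the highest correlation of the list with the array score, 0.977, and *Cnfn*, the gene of cornifelin in the cornified envelope, 0.949. *Cnfn* measured 6.04 on CRC 7 days male 1, 3.09 on CRC 21 days female 1, 2.58 on CRC + E171 21 days female 1 and 0.65 on CRC + E171 14 days male 2.

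For 20 genes of the basal layer and its adhesion the median was 3.75 on CRC 7 days male 1, 2.33 on CRC + E171 14 days male 2, 1.88 on CRC 21 days female 1 and 0.67 on CRC + E171 21 days female 1. It was 0.20 on CRC + E171 2 days male 2 and -0.01 on CRC 7 days female 2, and -1.05 to 0.15 on the 25 other arrays. Here CRC + E171 14 days male 2 came before CRC 21 days female 1, while in the cornification genes it came after it. *Trim29* was most like the array score (0.966). *Col17a1*, the collagen XVII of the hemidesmosome that ties basal cells to their basement membrane, was highest on CRC + E171 14 days male 2, at 1.16, with 0.02 on CRC 7 days male 1 and -0.73 on CRC 21 days female 1.

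Of 10 other keratins of stratified epithelium, *Krt10*, the type I keratin of the layers above the basal one in skin, was at 7.24 on CRC 7 days male 1, 6.15 on CRC 21 days female 1, 3.17 on CRC + E171 21 days female 1 and 2.60 on CRC + E171 2 days male 2. On CRC + E171 14 days male 2 *Krt10* was at -0.16. *Krt16*, a partner of Krt6a, was highest on CRC 21 days female 1, at 6.43, and *Krt17* on CRC 7 days male 1, at 6.25. The median of the list was 4.13, 3.71 and 1.35 on CRC 7 days male 1, CRC 21 days female 1 and CRC + E171 14 days male 2. It was 0.99 on CRC + E171 2 days male 2, 0.60 on CRC 7 days female 2 and 0.01 on CRC + E171 21 days female 1. On the 25 other arrays it ranged from -1.15 to 0.21, so that CRC + E171 21 days female 1 lay within their range.

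Markers of other tissues moved with the members on some of these arrays and not on others. On CRC 7 days male 1 the 13 genes of the hair follicle and shaft were all detected, with a median of 7.22, against a range of -1.31 to 0.58 over the other 30 arrays. Its 14 skeletal muscle genes had a median of 6.91 and its 10 genes of sebaceous gland and melanocytes one of 3.21. On the same array the median was -6.74 for 10 colonocyte genes, of which 9 were detected, -6.40 for 8 goblet cell genes and -3.56 for 11 genes of simple epithelium. CRC 21 days female 1 differed from it in these lists, with -0.25 for hair, 0.42 for skeletal muscle, 0.20 for colonocytes, -0.37 for goblet cells and -0.29 for simple epithelium.

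On CRC + E171 14 days male 2 the median of the colonocyte genes was -3.09, that of the goblet cell genes -4.02 and that of the simple epithelial genes -0.52. On the 25 other arrays these lists ranged from -3.42 to 1.84, -2.55 to 1.10 and -1.34 to 0.66, in that order. Each of them was lowest there on CRC 7 days male 2. On CRC + E171 14 days male 2 the hair list was at 0.58, skeletal muscle at 0.45 and the 11 neutrophil genes at 2.63. The neutrophil list was also at 4.31 on CRC 7 days male 1 and highest, at 5.38, on CRC 7 days male 2, whose array score was -0.98. The other 3 of the 6 arrays had colonocyte medians of -0.01 to 0.49, goblet cell medians of 0.02 to 0.18 and neutrophil medians of -0.45 to -0.20. CRC 7 days female 2 had a skeletal muscle median of 1.79, and on the 25 other arrays it did not exceed 0.02. The part of other tissues in the levels of the squamous genes was not tested.

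Other lists concern further sites and layers of the gut and its neighbours. Of 5 urothelial genes 2 to 4 were detected on the 6 arrays and their median ranged from -1.06 to 0.77, within the range of -1.29 to 1.02 on the 25 others. The 9 smooth muscle genes were each highest on one of the 6 arrays, with medians from -0.03 to 1.40 on these and -0.92 to 0.89 on the others. Their median was above that of all 25 others on CRC 21 days female 1 (1.40) and CRC + E171 2 days male 2 (0.91). Pancreatic acinar genes reached 9.88 on CRC + E171 2 days female 2 and lay between -2.04 and -0.91 on the 6 arrays. The 6 posterior Hox genes, which mark the hindgut, had medians of 1.16 to 1.88 on 5 of the 6 arrays and -0.43 on CRC 7 days male 1. On the 25 other arrays they ranged from -5.66 (CRC + E171 14 days female 1) to 1.88 (CRC 14 days male 2). Proliferation genes were highest on CRC + E171 14 days male 2, at 1.06.

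**Figure D4:**
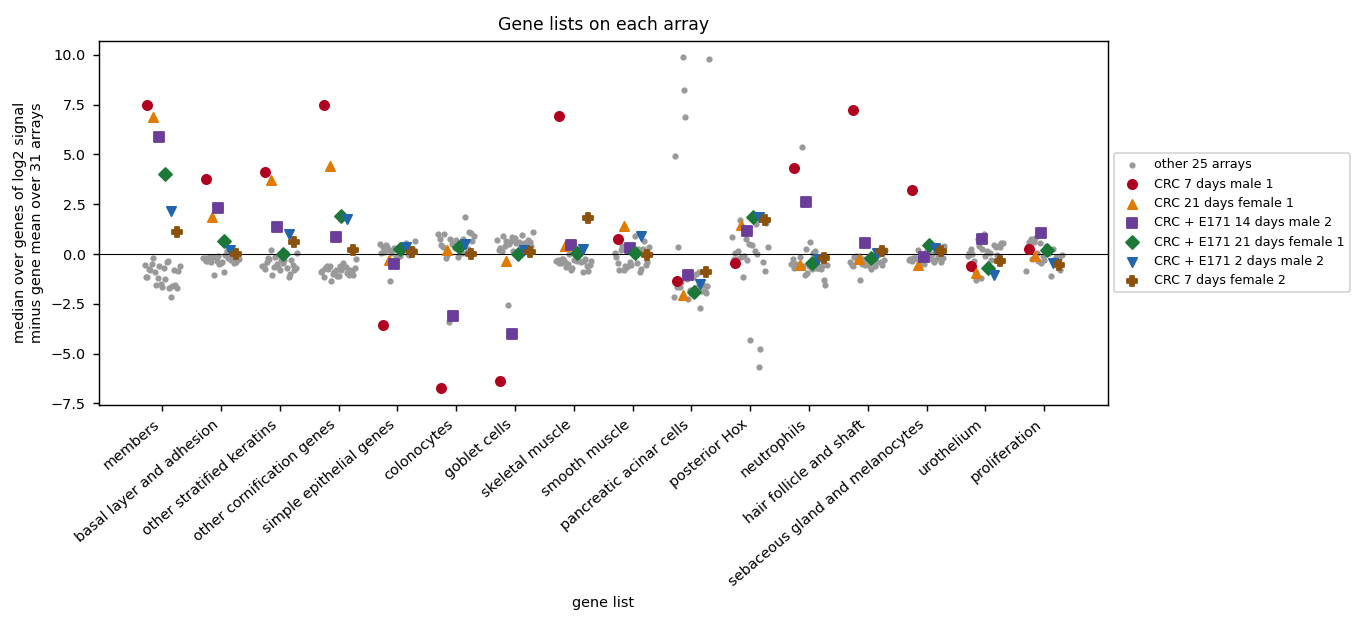
For each gene list a point shows an array by the median over the list of the log2 level minus the gene's mean over the 31 arrays, with coloured marks for the 6 arrays of the highest array score and grey points for the other 25. CRC 7 days male 1 (red circles) is high in hair follicle (7.22) and skeletal muscle genes (6.91) and low in colonocyte genes (-6.74), while CRC 21 days female 1 (orange triangles) is at -0.25 and 0.20 in the hair follicle and colonocyte genes.

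E171 was compared with its time-matched control on each day, by limma over all 19796 genes. No member had an adjusted p under 0.05 at 2, 7, 14 or 21 days, where 0.0%, 0.0%, 0.0% and 0.0% of all genes did. By a linear fold change of 1.5 and an unadjusted p under 0.05, limma called 0 of the 10 on each day, against 1.72%, 12.4%, 6.34% and 2.67% of all genes. At an unadjusted p under 0.05 alone the members were also 0 on each day, among 541, 3327, 1580 and 1149 genes, so that a higher threshold of fold change would also leave 0. Under the other settings 0 to 3 of the members passed the thresholds of fold change and unadjusted p on a day, and 0 after adjustment.

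At 2 days all 10 genes were higher in CRC + E171, and the median of their log2 fold changes was 1.25, against 0.06 over all genes. *Krt6a* had a level of -2.65 ± 0.66 (SD, n = 4) in CRC and -0.67 ± 1.43 (SD, n = 4) in CRC + E171, a log2 fold change of 1.99 (SE 1.86, with adjusted p = 0.999 by limma). *Krt6b* was at -3.85 ± 0.56 (SD, n = 4) in CRC and -2.10 ± 1.54 (SD, n = 4) in CRC + E171, and *Trp63* at -1.88 ± 0.07 (SD, n = 4) in CRC and -1.38 ± 0.25 (SD, n = 4) in CRC + E171. In these 3 genes every CRC + E171 array lay above every CRC array, which 3.91% of all genes showed in either direction at 2 days, and the exact permutation p was 0.0286, the smallest that 4 against 4 arrays can give. In *Trp63*, whose level is the mean of probes 3 and 4, probe 3 on its own gave this order, while the arrays overlapped with probe 4. In the other 7 genes the arrays overlapped, and the fold change ranged from 0.24 in *Sprr1a* to 2.04 in *Krtdap*, a mean of 3 probes of which 1 was not well above background on any CRC array of that day, so that its size is not settled. CRC + E171 2 days male 2 was the highest array of its group in 8 of the 10 genes, all but *Krt15* and *Trp63*. Without it the median was 0.47, the lowest of the values without any 1 array.

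Fitted on the 8 arrays of 2 days alone, *Krt6a* (1.99, SE 0.68) and *Krt6b* (1.75, SE 0.71) passed the unadjusted thresholds, with adjusted p = 0.836 for both in limma. In the same fit 559 of all 19796 genes passed them. Krtdap probe 2 passed the background in 2 of the 4 mice of CRC + E171 and in 0 of the 4 of CRC. It measured 0.95 on male 2 and -4.76 on female 1 of CRC + E171, so that its mean rests mainly on male 2.

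At 7 days all 10 genes were lower in CRC + E171, and the median of their log2 fold changes was -2.74, against -0.01 over all genes. *Krt5* was at -0.11 ± 4.78 (SD, n = 4) in CRC and -4.00 ± 0.39 (SD, n = 4) in CRC + E171, a log2 fold change of -3.89 (SE 2.24, with adjusted p = 0.378 by limma). The difference was within the spread of the CRC arrays, of which CRC 7 days male 1 was at 6.65 and the other 3 between -3.96 and -0.20. *Lor* had a log2 fold change of -2.52 (SE 1.45) and *Krtdap* one of -3.60 (SE 2.18). The size of the latter is not settled, since its probe 2 was well above background on 2 of 4 CRC and 1 of 4 CRC + E171 arrays. In all 10 genes the arrays of both groups overlapped at 7 days, where 4.85% of all genes did not. Without CRC 7 days male 1 the median was -0.83. Without it *Sprr1a* turned to 1.13 and *Trp63* to 0.40. Leaving out CRC 7 days female 1 brought *Krt5* and *Krtdap* past the unadjusted thresholds, leaving out CRC 7 days male 2 did so for *Krtdap* and *Lor*, and leaving out CRC + E171 14 days male 2, which enters the common spread, for *Krt5*. In these fits 3973, 1735 and 2698 of all 19796 genes passed them. With all arrays, where 12.4% of all genes were called by the unadjusted thresholds, 11 of 14 skeletal muscle, 6 of 10 neutrophil and 3 of 9 pancreatic acinar genes were lower at 7 days. The medians of these lists were -2.11, -2.69 and -4.93. Of the lists that were higher, 8 of 10 colonocyte, 7 of 8 goblet cell and 10 of 11 simple epithelial genes were called. Their part in the differences of the squamous genes was not tested.

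At 14 days 7 of the 10 genes were higher in CRC + E171, and the median of their log2 fold changes was 0.66, against 0.01 over all genes. *Krt6a* was at -2.08 ± 0.20 (SD, n = 4) in CRC and 0.74 ± 4.03 (SD, n = 4) in CRC + E171, a log2 fold change of 2.82 (SE 1.86, with adjusted p = 0.738 by limma). Its CRC + E171 arrays all lay above its CRC arrays, which 5.9% of all genes showed in either direction, but 2 of them, at -1.90 and -1.91, lay close to the highest CRC array at -1.91. *Krt14* was at 0.44 ± 1.35 (SD, n = 4) in CRC and -0.24 ± 4.79 (SD, n = 4) in CRC + E171. Here CRC + E171 14 days male 2 was at 6.83 and the other 3 at -1.37 or less, while 3 of 4 CRC arrays were above 0. Without CRC 14 days male 2, whose sex genes went against its label, the median was 0.47 and 6 of the 10 genes were higher. Without CRC + E171 14 days male 2 the median was -0.86 and 2 of the 10 genes were higher, *Krt6a* and *Sprr1a*. The direction turned in *Krt5*, *Krt6b*, *Krt15*, *Krtdap* and *Trp63*.

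With the 3 arrays that had all 16 probes well above background left out, a setting chosen after the data were seen, *Krt14* was at -3.04, *Krt13* at -3.85 and *Krt15* at -2.31 in CRC + E171 against CRC at 14 days. These 3 of the 10 genes then passed the unadjusted thresholds, as did 2361 of all 19796 genes, and 0 of the 10 passed after adjustment in limma. At 14 days the setting removes the highest CRC + E171 array, picked by the signal of these genes, and no CRC array, so that the lower levels are a description and no test. The CRC arrays measured -3.23, -2.56, -2.54 and -1.18 in *Krt15*, and the 3 CRC + E171 arrays that remained -4.43, -4.71 and -4.92. In *Krt13* the CRC arrays measured -3.51, -7.00, -3.00 and -1.79, and the 3 CRC + E171 arrays -6.47, -7.95 and -8.60, of which the last 2 were not well above background with either probe. With all arrays 4 of 6 posterior Hox genes were called lower in CRC + E171 at 14 days, by the unadjusted thresholds, where 6.34% of all genes were called, and their median was -3.40. *Hoxb13* had a log2 fold change of -5.50 and *Hoxd13* one of -4.47. Their part in the differences of the squamous genes was not tested.

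At 21 days all 10 genes were lower in CRC + E171, and the median of their log2 fold changes was -1.21, against 0.02 over all genes. *Krt13* was at -2.77 ± 5.84 (SD, n = 3) in CRC and -4.60 ± 4.14 (SD, n = 4) in CRC + E171, a log2 fold change of -1.84 (SE 2.74, with adjusted p = 0.956 by limma). Its size is not settled, since probe 1 of *Krt13* was well above background on 1 of 3 CRC and 1 of 4 CRC + E171 arrays of that day. *Lor* was at 1.92 ± 3.66 (SD, n = 3) in CRC and 0.57 ± 1.56 (SD, n = 4) in CRC + E171. In all 10 genes the arrays overlapped, where 8.02% of all genes did not, and 3 against 4 arrays cannot give an exact permutation p under 0.0571. Each group held 1 array high in the genes, CRC 21 days female 1 and CRC + E171 21 days female 1, which were the highest of their groups in all 10 genes. Without CRC 21 days female 1 the median was 1.26, and 9 of the 10 genes were higher in CRC + E171, all but *Trp63*. Without CRC + E171 21 days female 1 it was -2.48.

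**Figure D5:**
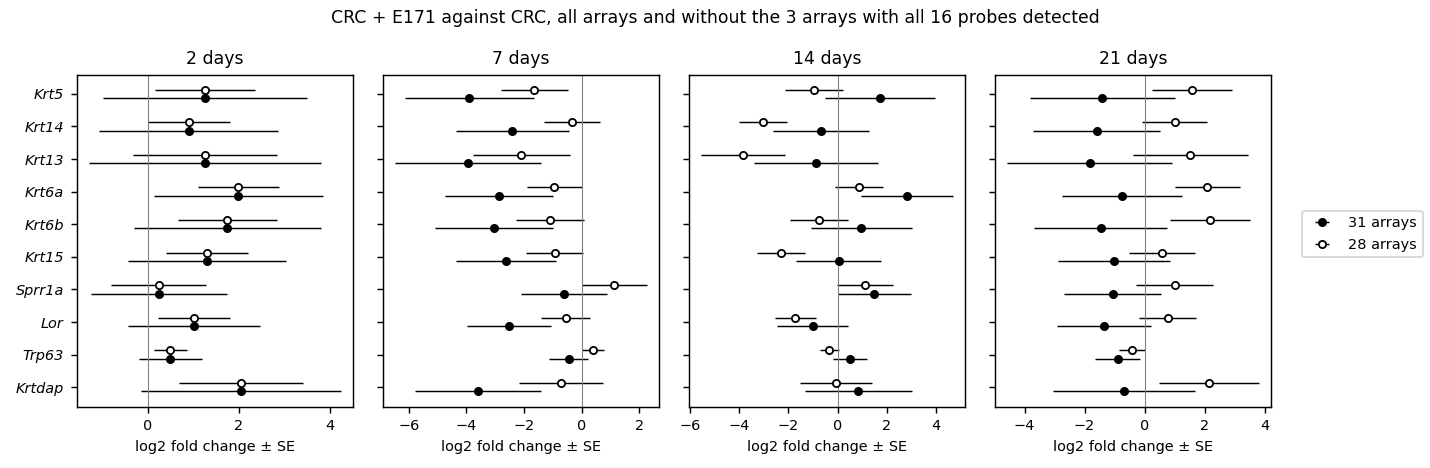
For each day the points give the log2 fold change of CRC + E171 against CRC of each gene with its standard error from limma, with all 31 arrays (filled) and without the 3 arrays on which all 16 probes were well above background (open, 28 arrays). At 21 days the filled points lie below 0 for all 10 genes, and the open ones above 0 for 9 of them.

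Averaged over the 4 days, the log2 fold change with E171 ranged from -1.35 in *Krt13* to 0.30 in *Krt6a*, with a median of -0.51 over the 10 genes and 0.03 over all genes. Limma called 0 of the 10 after adjustment, where 0.00505% of all genes passed, and 0 by fold change and unadjusted p, where 1.79% did. With the slides as a fixed block the median was -0.45, and with the scan days as a block -0.49. The slide block compares both treatments within a slide, where they are of different days. The effect of E171 differed between days in 0 of the 10 genes after adjustment (0.0% of all genes) and in 0 at an unadjusted p under 0.05 (6.52% of all genes). The smallest unadjusted p of the 10 was 0.147, in *Krt6a*.

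Days were also compared within each treatment. Within CRC 0 of the 10 genes differed between days after adjustment in limma (0.0% of all genes) and 0 at an unadjusted p under 0.05 (9.89% of all genes), with the smallest p in *Krt6a* (0.120). Without CRC 7 days male 2, *Lor* passed the unadjusted threshold, as did 1462 of all 19796 genes. Within CRC + E171 0 differed after adjustment (0.0% of all genes) and 0 at an unadjusted p under 0.05 (14.6%), with the smallest p in *Lor* (0.277). Without the 3 arrays *Lor* passed the unadjusted threshold, and so did 3712 of all 19796 genes.

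Females and males, as labelled, were compared over all groups. All 10 genes were lower in females, with log2 differences of -0.99 (*Krt13*, SE 1.31) to -0.07 (*Sprr1a*, SE 0.78) and a median of -0.34, against 0.02 over all genes. Limma called 0 of them after adjustment (0.0556% of all genes) and 0 by fold change and unadjusted p (2.98%). Of the 6 arrays with the highest array score 3 were labelled male and 3 female. The median was -0.33 without CRC 14 days male 2, 0.42 with array weights and 0.26 without the 3 arrays.

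Trp63 probe 4 gave other values than the gene. Where each gene was represented by its highest probe, which for *Trp63* was probe 4, the log2 fold change with E171 was 0.88 at 7 days (SE 0.27, with adjusted p = 0.213 by limma) and -0.62 at 21 days (SE 0.30, with adjusted p = 0.780), and both passed the unadjusted thresholds. At 7 days it measured 0.82, 0.18, 1.47 and 1.88 in CRC and 2.34, 1.91, 1.62 and 1.98 in CRC + E171. Trp63 probe 1 was well above background on 1 of the 4 CRC arrays of 7 days, CRC 7 days male 1, and on 0 of 4 in CRC + E171, so that its mean was at least 2.19-fold higher in CRC, a bound that rests on this array. The 2 probes thus lay on opposite sides at 7 days. Which transcripts each of them binds was not tested.

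The other stratified genes were read from the same fit. Of 31 other cornification genes that passed the filter 3 were lower with E171 at 7 days by fold change and unadjusted p, *Asprv1* (-3.45), *Sprr2e* (-2.90) and *Tgm1* (-2.88), and 0 higher, where 12.4% of all genes were called. The median of the 31 was -2.12. At 14 days *Abca12* was higher (3.79), and *Casp14* (-2.44) and *Tgm3* (-1.98) were lower, where 6.34% of all genes were called. At 2 and 21 days 0 of the 31 were called, against 1.72% and 2.67% of all genes. Among 17 genes of the basal layer and adhesion *Fat2* (1.60) and *Ovol1* (0.99) were higher at 14 days. Of 8 other stratified keratins *Krt2* (1.05) was higher and *Krt77* (-1.55) lower at 14 days, and *Krt16* was lower at 21 days (-2.96). After adjustment limma called 0 genes of these 3 lists on any day. The hair follicle list had 4 of 10 genes lower at 7 days, *Krt25*, *Krt28*, *Krt83* and *Krt86*, and CRC 7 days male 1 had the highest level of each.

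Promoter sequence, from 250 bases before to 50 bases after a start site, was given for 6 of the 10 genes in 7 windows (RefSeq, GRCm38.p6). The letters TATAAA were found in 3 of the 7 windows, on either strand, and in 13.6% of 32851 promoters. TGANTCA, the letters of an AP-1 site, was found in 5 of the 7 windows, those of *Krt13*, *Sprr1a*, *Lor* and *Krtdap*, and in 7.81% of all promoters. These letters read the same on both strands and do not overlap the other motif in these windows. The core of a p63 site, 2 copies of CNNG with 6 bases between them, was found in 3 of the 7 windows and in 70.2% of all promoters. The 150 bases before the start are printed for the 3 genes whose windows hold both motifs, and for *Krt5*, which holds neither, with TATAAA and TGANTCA in capitals.
Sprr1a promoter, chr3:92485882-92486031, minus strand: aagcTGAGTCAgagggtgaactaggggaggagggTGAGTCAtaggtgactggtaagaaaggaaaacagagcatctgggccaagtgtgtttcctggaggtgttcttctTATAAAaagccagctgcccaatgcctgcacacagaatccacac
Lor promoter, chr3:92083143-92083292, minus strand: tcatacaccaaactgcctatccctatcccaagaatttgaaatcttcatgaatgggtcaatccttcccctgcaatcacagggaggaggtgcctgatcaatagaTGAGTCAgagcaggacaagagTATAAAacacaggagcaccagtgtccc
Krtdap promoter, chr7:30787755-30787904, plus strand: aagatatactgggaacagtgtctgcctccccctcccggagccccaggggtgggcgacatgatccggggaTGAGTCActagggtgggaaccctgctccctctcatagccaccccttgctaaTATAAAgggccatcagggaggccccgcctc
Krt5 promoter, chr15:101712906-101713055, minus strand: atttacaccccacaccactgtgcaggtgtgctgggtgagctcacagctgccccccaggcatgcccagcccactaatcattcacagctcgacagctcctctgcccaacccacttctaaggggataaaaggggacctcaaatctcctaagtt
The match to TATAAA began 43, 27 and 30 bases before the start in *Sprr1a*, *Lor* and *Krtdap*, and that to TGANTCA 146 and 116, 48, and 81 bases before it. These are matches of letters and not sites of binding.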

How the data were processed

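RNA of 31 distal colons was hybridised to Agilent one-colour mouse arrays, 1 per mouse, and groups were taken from the sample labels. The authors deposited Feature Extraction output, from which the processed signal of each spot was used as a linear intensity (already background-corrected by the scanner software), together with the mean and background intensities and the flag for spots well above background. The authors also deposited a matrix of normalized log2 values of 42568 probes, whose normalization method is not given in the sources used here and which served as an alternative. Its columns had medians of 9.43 to 9.67 and ranked the probes like their own array (Spearman 0.993 or more).

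Control spots were left out, spots of a probe were averaged, and log2 of the intensity minus the 75th percentile of the array was used. Probes were kept if well above background on at least 60% of the arrays of at least 1 group and with a mean log2 signal of at least 4, which left 42787 of 56605 probes. Symbols were matched to RefSeq by accession (32989 probes), symbol (10228) or synonym (519), and probes of a gene were averaged. Models were fitted with limma 3.58.1 in R 4.3.3 (with the packages statmod, 1.5.0, and data.table, 1.17.8), with a mean for each of the 8 groups over all 31 arrays and Benjamini-Hochberg adjustment over all 19796 genes. Calls were made at an adjusted p under 0.05, or at a linear fold change of 1.5 with an unadjusted p under 0.05, where the methods of the study name a Log2FC of 1.5 and the same p, so that the second rule is wider than the one stated there. For tests of differences among days the second rule used the unadjusted p alone. Single values were compared with two-sided exact permutation tests in SciPy 1.17.1 (Python 3.11.15, NumPy 2.4.6, pandas 2.3.3). The code was tested on simulated data with known fold changes.

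The members and the gene lists were chosen with earlier results of these data known. Values are given for all members. Genes outside them are named where they were called in a list, where they were among the 10 most or 5 least like the array score, or where they were the most alike of a list. Some results are not reported here. *Cnfn*, *Col17a1*, *Krt10*, *Krt16* and *Krt17* were described by their levels after these were seen. Alternatives were the normalization, background correction, filter, probe choice, arrays in the fit, covariates, slide and scan day as blocks, array weights and leaving out each array. Precision is limited by 3 or 4 arrays per group.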

Additional observations from a re-analysis of the deposited data

Results flagged for a closer look

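In each group of 4 arrays the highest or lowest array was compared with the others by the gap to its nearest neighbour as a share of the range of the group, which chance takes past Dixon's critical value for 4 arrays in about 5% of groups. Of 77 groups of 4 arrays, over the 10 genes and the array score, 16 passed it. The genes were chosen for being high on a few of these arrays and are not independent of each other, so that this number is a description and cannot be read against the share that chance gives. CRC + E171 14 days male 2 lay apart in 6 of them, with shares of 0.889 for *Krt5*, 0.834 for *Krt13*, 0.896 for *Krt6b*, 0.950 for *Krt15*, 0.869 for *Trp63* and 0.991 for the array score. CRC + E171 21 days female 1 did so in 5, with 0.839 for *Krt14*, 0.882 for *Krt13*, 0.860 for *Krt6a*, 0.831 for *Trp63* and 0.866 for the array score. CRC + E171 2 days male 2 did so in the array score (0.898). CRC 7 days male 1 did so in *Sprr1a* (0.844), with 5.60 against -0.97 for the next array, and not in the other genes of its group, where CRC 7 days female 2 lay between it and the others. CRC at 21 days, with 3 arrays, was not examined.

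In the remaining cases another array was alone. *Lor* was low on CRC 2 days male 2 (0.864, at -1.25 against -0.72 for the next array) and on CRC + E171 7 days female 2 (0.894, at -2.28 against -0.93). *Trp63* was high on CRC + E171 7 days male 1 (0.852, at -0.80 against -1.91). The causes were not tested.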

How the results depend on the processing

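No member passed the adjusted threshold in any comparison under any alternative. The count of members past the unadjusted thresholds, 0 with all arrays, became 1 at 7 days, 1 at 21 days, 1 for the difference between days and 1 for the days within CRC + E171 with the highest probe of a gene (*Trp63*), where 2496, 584, 1349 and 2908 of all 19796 genes passed. With each probe fitted on its own, chosen after seeing the data, it was 1 of 16 probes at 7 days, 1 for the difference between days and 1 within CRC + E171, against 5944, 3446 and 7596 of 56605 probes. With only the groups compared it was 2 at 2 days, against 559 of all genes. Without the 3 arrays with all 16 probes well above background, also chosen after seeing the data, it was 1 at 2 days, 3 at 14 days, 1 for the difference between days and 1 within CRC + E171, against 389, 2361, 1303 and 3712 of all 19796 genes. Leaving out each array gave 0 to 2 at 7 days, 0 to 1 for the days within CRC, and 0 elsewhere.

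The median log2 fold change of the members ranged with each array left out from 0.47 to 1.56 at 2 days, from -3.66 to -0.83 at 7 days, from -0.86 to 1.09 at 14 days, from -2.48 to 1.26 at 21 days, from -1.01 to 0.093 for the mean over days (0.0062 without CRC 7 days male 1) and from -0.72 to 0.16 for females minus males. At 14 days it turned to -0.081 with array weights, and the sex difference to 0.42. Without the 3 arrays it turned to -0.86 at 14 days, 1.26 at 21 days, 0.045 for the mean and 0.26 for sex.

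Single genes turned as follows without the 3 arrays: at 7 days *Sprr1a* to 1.13 and *Trp63* to 0.40, at 14 days *Krt15* to -2.31, *Krt5* to -0.96, *Krt6b* to -0.76, *Krtdap* to -0.073 and *Trp63* to -0.34, and at 21 days *Krt13* to 1.52, *Krt14* to 0.999, *Krt15* to 0.57, *Krt5* to 1.56, *Krt6a* to 2.09, *Krt6b* to 2.17, *Krtdap* to 2.15, *Lor* to 0.76 and *Sprr1a* to 0.99. With array weights *Sprr1a* was at 0.64 at 7 days, and at 14 days *Krt15* was at -1.05, *Krt6b* at -0.12 and *Trp63* at -0.037. *Krt15* at 14 days was also at -0.10 in the authors' matrix and at -0.44 with the scan day as a block, *Krt13* at 14 days was at 0.73 with normexp, and *Trp63* at 7 days was at 0.88 with its highest probe. The causes were not tested.

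With single arrays left out, the log2 fold changes that changed sign ranged at 7 days from -1.47 to 1.13 for *Sprr1a* and from -1.12 to 0.40 for *Trp63*. At 14 days they ranged from -3.85 to 0.42 for *Krt13*, -3.04 to 0.36 for *Krt14*, -2.31 to 0.91 for *Krt15*, -0.96 to 2.78 for *Krt5*, -0.76 to 1.67 for *Krt6b*, -0.073 to 1.52 for *Krtdap* and -0.34 to 0.82 for *Trp63*. At 21 days they ranged from -3.90 to 1.52 for *Krt13*, -3.10 to 0.999 for *Krt14*, -2.26 to 0.57 for *Krt15*, -3.04 to 1.56 for *Krt5*, -2.30 to 2.09 for *Krt6a*, -3.44 to 2.17 for *Krt6b*, -2.54 to 2.15 for *Krtdap*, -2.41 to 0.76 for *Lor* and -2.31 to 0.99 for *Sprr1a*. Within these ranges the sign also changed for *Sprr1a* at 7 days without CRC + E171 7 days female 1 (0.133), for *Krt13* at 14 days without CRC + E171 14 days female 1 (0.199), for *Krt15* at 14 days without CRC 14 days male 1 (-0.237), female 1 (-0.0054) or male 2 (-0.0111), and for *Krtdap* at 21 days without CRC + E171 21 days male 1 (0.166).

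Of the other values under alternatives, 496 without and 1215 with an array left out kept their direction and side of the threshold. Samples of a day share only a number, and the deviations of arrays of the same sex and number correlated between -0.18 and 0.48. With sex and number as a replicate block 0 members were called and the medians were 1.25, -2.74, 0.66 and -1.31 at 2, 7, 14 and 21 days, while the genes past the unadjusted thresholds became 671, 2541, 1521 and 837, from 340, 2455, 1256 and 528. The block made the mean over days -0.57 and the sex difference -0.32.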
